A study of Mus musculus with 16 samples.

Results

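The Fgf ligands are 10 genes, *Fgf1*, *Fgf3*, *Fgf4*, *Fgf5*, *Fgf8*, *Fgf9*, *Fgf10*, *Fgf15*, *Fgf17* and *Fgf18*, taken by name and found by symbol among 19338 genes, with the entry of the highest mean standing for each gene. All 10 were found, each with 1 entry. Nuclear RNA of mouse embryonic stem cells (ESCs), pluripotent cells of the early embryo, was sequenced from 4 groups of 4 libraries, 16 in all. The PRC1/2-null group is the line Eed-/-;Ring1a-/-;Ring1bfl/fl (PcG DKO, clone B4) after 800 nM 4-hydroxytamoxifen for 72 h, and the PRC2-null group is that line untreated. The PRC1-null group is the line Ring1a-/-;Ring1bfl/fl after the same tamoxifen treatment, and the wild-type group is that line untreated. All 4 groups therefore lack RING1 (RING1A). Tamoxifen deletes the floxed Ring1b (Rnf2) allele in the treated groups, while the untreated groups keep it, and both groups without Eed come from 1 CRISPR clone. The cells were grown without feeders in serum with leukemia-inhibitory factor. PRC1 and PRC2 are the Polycomb repressive complexes, which mark chromatin of silent developmental genes by H2A ubiquitylation and H3K27 methylation. The value used for each gene was the authors' mean normalized count over all the libraries, identical in the 3 deposited tables and for that reason taken as 1 mean over all groups. It has no error, no value per library and none per group. The tables also hold the authors' own comparisons of each null group with wild type, which were not used here, so that no ligand is compared between null and wild-type cells and no test is given. A given mean can come from a like level in every group or from a high level in 1 of them, and in bulk RNA fewer expressing cells cannot be told apart from less RNA per cell.

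Fibroblast growth factors are secreted proteins that bind receptor tyrosine kinases together with heparan sulfate and signal through RAS and a kinase cascade. In mouse ESCs FGF4 is the best known ligand, acting on the cells that secrete it and moving them toward lineage commitment, while other ligands of the family pattern the primitive streak, limb, brain and lung later in development. *Fgf15* encodes the endocrine factor of the set, and the Fgf11 to Fgf14 genes encode relatives that are not secreted. Levels are given per kb because longer RNA yields more reads. The main scale divides by the length of the mature transcript, and a second scale divides by the whole gene, introns included, since nuclear RNA holds unspliced RNA and the sources used here do not state whether introns were counted.

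Promoter sequences from RefSeq (GRCm38.p6, the build that mm10 names) were matched for 6 of the 10 ligands, *Fgf3*, *Fgf4*, *Fgf5*, *Fgf9*, *Fgf10* and *Fgf18*. The *Fgf9* window, which starts at 58072436 on chromosome 14, lies inside the gene span used here (start 58070671), so that it stands for another start site and was left out of what follows. The window of *Fgf4*, the ligand with the highest level, is shown. Those of *Fgf18* and *Fgf10* held the most and the fewest CG dinucleotides of the 5 windows left and are shown too. They are given because CpG-rich promoters are the sites where Polycomb complexes are known to gather. Each runs 5′ to 3′ from 250 bases before to 50 bases after the gene's start, and capitals mark CG.
Fgf4 (chr7:144861136-144861435, plus strand): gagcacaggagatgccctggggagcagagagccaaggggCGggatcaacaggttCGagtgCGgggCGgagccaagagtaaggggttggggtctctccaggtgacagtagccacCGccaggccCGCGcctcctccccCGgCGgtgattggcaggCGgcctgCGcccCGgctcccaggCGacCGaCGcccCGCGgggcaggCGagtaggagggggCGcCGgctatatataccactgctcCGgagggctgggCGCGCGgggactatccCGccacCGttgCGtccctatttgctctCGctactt
Fgf18 (chr11:33147351-33147650, minus strand): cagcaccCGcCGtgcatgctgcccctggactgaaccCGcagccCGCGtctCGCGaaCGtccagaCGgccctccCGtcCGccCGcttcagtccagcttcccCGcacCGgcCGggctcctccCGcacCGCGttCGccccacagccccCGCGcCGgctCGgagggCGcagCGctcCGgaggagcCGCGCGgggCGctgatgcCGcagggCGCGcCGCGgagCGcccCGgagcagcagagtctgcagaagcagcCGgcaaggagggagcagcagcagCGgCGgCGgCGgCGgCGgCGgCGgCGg
Fgf10 (chr13:118714449-118714748, plus strand): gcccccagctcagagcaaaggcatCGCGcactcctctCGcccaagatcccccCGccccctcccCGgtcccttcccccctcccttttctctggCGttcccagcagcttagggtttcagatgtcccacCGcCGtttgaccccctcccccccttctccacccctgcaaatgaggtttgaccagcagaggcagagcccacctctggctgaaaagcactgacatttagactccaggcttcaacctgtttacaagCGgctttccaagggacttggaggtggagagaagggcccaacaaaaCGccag

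The *Fgf18* window held 47 CG, more than 98.6% of the 32851 promoters of the same length. The *Fgf4* window held 28 CG and that of *Fgf5* 29, against a median of 7 over all promoters. *Fgf3* had 14 and *Fgf10* 10. All 5 thus lay above the median of all promoters, with *Fgf10* the lowest, above 56.5% of them. The GC content ran from 59.3% in *Fgf3* to 78.7% in *Fgf18*, beside a median of 52.7%. The letters GGGCGG, searched on both strands and overlapping CG where they occur, were found in *Fgf4*, *Fgf5*, *Fgf10* and *Fgf18* and in 35.7% of all promoters. TATAAA, also searched on both strands, was found in *Fgf5* alone of the 5 and in 13.6% of all promoters. Only these exact letters were searched, and the *Fgf4* window printed above holds the near run tatatata. The order of CG number was not that of level, since *Fgf5* and *Fgf4* had nearly the same number of CG and unlike levels. The level of *Fgf4* was 13.0 times that of *Fgf5* per kb of transcript, and 388 times per kb of gene.

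*Fgf4* stood above the other ligands on both length scales. *Fgf4* (NM_010202, chromosome 7 from 144861386 to 144865245, 3 exons) had a mean normalized count of 1441, which is 476 per kb of mature transcript and 373 per kb of gene. Of all genes with a transcript length, 83.2% had a lower level per kb of transcript. Per kb of gene, 99.0% of the genes with a gene length were lower. *Fgf4* made up 50.1% of the summed level of the 10 ligands per kb of transcript, and 87.3% per kb of gene. The mature transcript of *Fgf4* covers 78.5% of its gene, whereas that of *Fgf10* covers 5.28% and that of *Fgf18* 3.57%. *Fgf5* (NM_001277268, chromosome 5 from 98254184 to 98277033), the other secreted factor of the FGF4 subfamily among the 10 and a marker of the epiblast after implantation, had a mean of 22.0. This is 36.7 per kb of transcript and 0.963 per kb of gene, and the value per kb of gene was the lowest of the 10. The entry of *Fgf5* matched a transcript of 600 nt and 2 exons that encodes 121 residues, against 3030 nt and 202 residues for *Fgf4*, so that its value per kb of transcript rests on a short model.

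**Figure D1:**
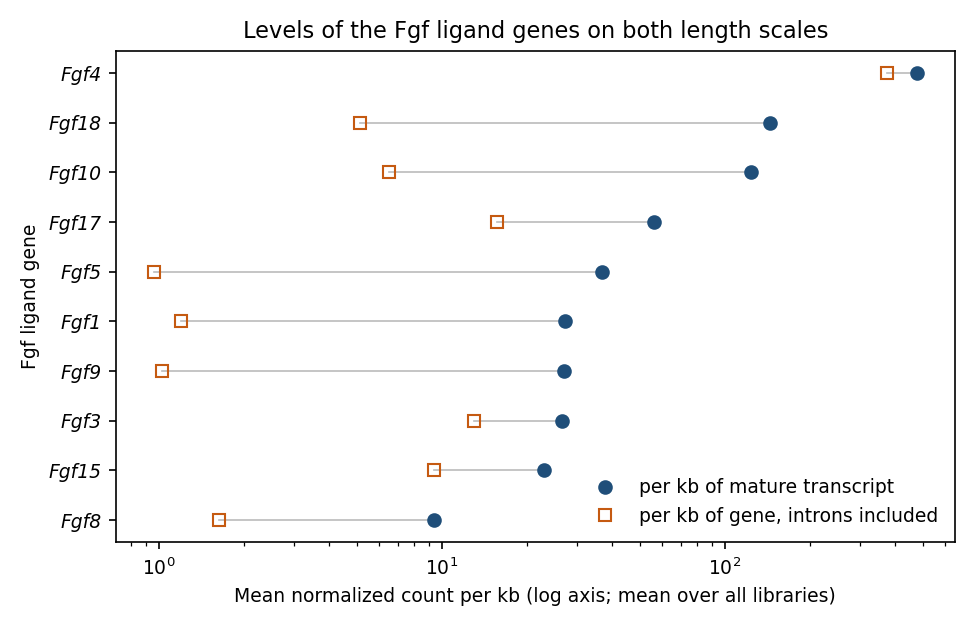
Level of each Fgf ligand gene, as the authors' mean normalized count over all libraries per kb, on a log axis; filled circles divide by the mature transcript, open squares by the whole gene, and grey lines join the values of 1 gene. *Fgf4* is rightmost on both scales, at 476 and 373, and the order of the others differs between the scales.

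The FGF8 subfamily, whose members are signals of embryonic patterning centres such as the midbrain-hindbrain boundary, was spread over a wide range. *Fgf18* (NM_008005, chromosome 11 from 33116970 to 33147400, 5 exons), a factor of bone and lung development, had a mean of 157 and 144 per kb of transcript, the second level of the 10. *Fgf17* (NM_008004, chromosome 14 from 70636203 to 70642268, 5 exons) had a mean of 95.1 and 56.3 per kb of transcript. *Fgf8* (NM_001166361, chromosome 19 from 45736491 to 45742941, 6 exons), which is needed for cells to leave the primitive streak, had a mean of 10.5 and 9.42 per kb of transcript, the lowest of the 10. Per kb of gene the order within this subfamily changed, to 15.7 for *Fgf17*, 5.15 for *Fgf18* and 1.63 for *Fgf8*, so that *Fgf8* was the lowest of the subfamily on both scales and the order of *Fgf17* and *Fgf18* turned.

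*Fgf10* (NM_008002, chromosome 13 from 118714699 to 118792573, 3 exons), a mesenchymal signal for limb and lung buds, had a mean of 507, which gave 123 per kb of transcript and 6.51 per kb of gene. *Fgf3* (NM_008007, chromosome 7 from 144838612 to 144843348, 3 exons), an inducer of the inner ear, had a mean of 61.3, which gave 26.7 per kb of transcript and 12.9 per kb of gene. *Fgf10* was thus above *Fgf3* per kb of transcript and below it per kb of gene. *Fgf9* (NM_013518, chromosome 14 from 58070671 to 58112854, 3 exons), a factor of testis and lung development, had a mean of 43.2 and 27.1 per kb of transcript. *Fgf1* (NM_010197, chromosome 18 from 38838672 to 38929470, 4 exons), a ligand of all FGF receptors that lacks a classical signal peptide, had a mean of 109 and 27.3 per kb of transcript. *Fgf15* (NM_008003, chromosome 7 from 144896532 to 144900953, 3 exons), known as a signal from gut to liver and as a gene of the embryonic brain, had a mean of 41.4 and 22.9 per kb of transcript. *Fgf1*, *Fgf9*, *Fgf3* and *Fgf15* lay between 22.9 and 27.3 per kb of transcript, and with no error at hand their order is not one of established differences. Per kb of gene they parted, at 1.20 for *Fgf1* and 1.02 for *Fgf9*, the genes with long introns, and 12.9 for *Fgf3* and 9.36 for *Fgf15*.

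Genes whose spans overlap, introns included, may bear on some of these values. In the GENCODE M21 annotation the whole of *Fgf1*, which lies on the minus strand, is covered by *Arhgap26* on the plus strand, which had a mean of 1948 counts. The mean of *Fgf1*, 109 counts, is given beside it as a number of reads and not as a comparison of levels. A long noncoding RNA gene, *AC110730.1*, also lies on the plus strand and overlaps *Fgf1* over 37015 bp. In the same annotation antisense genes overlap *Fgf10* over 20105 bp and *Fgf15* over 931 bp (*Gm26793*) and 1641 bp (*Gm39119*). A processed pseudogene there overlaps *Fgf9* over 358 bp. RefSeq, which gave the gene spans used here, places *Gm39119* from 144904534, past the end of *Fgf15* at 144900953. It places *Gm26793* from 144894121 to 144899688, over the start of *Fgf15* at 144896532. The library kit is directional, but whether counting used strand is not given in the sources used here. Without strand, reads from the stretch that *Fgf1* and *Arhgap26* share cannot be told apart. How many such reads were counted depends on whether introns were, which is also not given. The remaining 6 ligands have no overlapping gene in the GENCODE M21 annotation.

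*Fgf3*, *Fgf4* and *Fgf15* are neighbours, transcribed in the same direction within 62.3 kb of chromosome 7. *Fgf3* ends 18.0 kb before *Fgf4* starts, and *Fgf4* ends 31.3 kb before *Fgf15* starts. The middle gene had a level per kb of transcript 17.8 times that of *Fgf3* and 20.8 times that of *Fgf15*, and per kb of gene the ratios were 28.8 and 39.9. *Fgf4* was therefore the high gene of the 3 on either scale. The next gene past *Fgf15* with an entry, *LTO1*, had 51.7 per kb of transcript, and *Ccnd1*, which encodes cyclin D1, had 215.

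**Figure D2:**
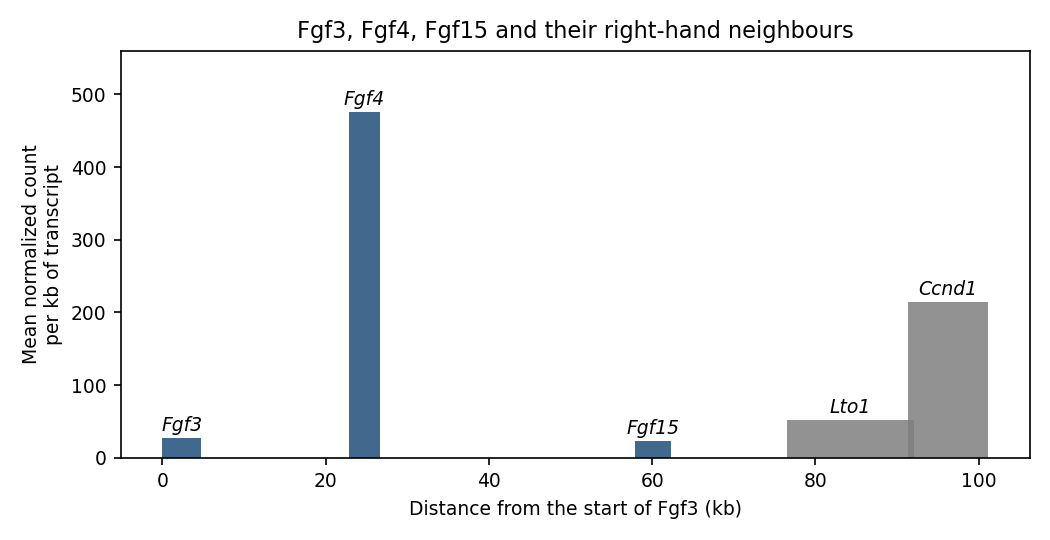
Genes of the *Fgf3* to *Ccnd1* stretch of chromosome 7 that have an entry, drawn to scale by their distance from the start of *Fgf3* in kb, with bar height showing the authors' mean normalized count per kb of transcript over all libraries; Fgf genes are blue and others grey. *Fgf4*, at 476, stands between *Fgf3* at 26.7 and *Fgf15* at 22.9.

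The 10 ligands had a median of 32.0 per kb of transcript, against 76.6 over all genes, and 3 of them, *Fgf4*, *Fgf18* and *Fgf10*, lay above that median of all genes. Per kb of gene the ligands had a median of 5.83, against 8.74 over all genes, and the 4 above it were *Fgf4*, *Fgf17*, *Fgf3* and *Fgf15*. *Fgf4* alone was thus above the median of all genes on both scales. The 12 other Fgf genes had a median of 3.38 per kb of transcript, and 8 of them were below *Fgf8*, the lowest of the 10. None of those 8 is of the Fgf11 to Fgf14 subfamily. Of the 12, 6 had a mean below 10, against 0 of the 10. The 10 were chosen with earlier results of these data known, so this contrast describes the list and is not a result about ligands. The 3 highest of the 12 were *Fgf13* at 301, *Fgf12* at 256 and *Fgf14* at 53.1 per kb of transcript, all genes of the subfamily that is not secreted. *Fgf12* and *Fgf14* had means of 212 and 192, and their matched transcripts were 831 and 3608 nt, so that the value of *Fgf12* rests on a short model. *Fgf13*, *Fgf12* and *Fgf14* have 3, 3 and 2 entries, of which the highest was kept. Per kb of gene these 3 were at 1.29, 0.357 and 0.273, as each spans a very long stretch of genome, and *Fgf11* was the highest of the 12 at 7.23. *Fgf6*, a factor of muscle, was the lowest Fgf gene, with a mean of 0.119.

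Genes that receive and pass on the FGF signal were measured on the same scale. All 5 receptor genes had an entry, with a median of 65.0 per kb of transcript. *Fgfr2* was at 491 and *Fgfr1* at 391 per kb of transcript, and *Fgfrl1*, which encodes a receptor without a kinase domain, at 65.0. *Fgfr2* was the receptor gene above *Fgf4*, and *Fgfr3* at 59.8 and *Fgfr4* at 40.9 were the lowest of the 5. Per kb of gene no receptor was above 27.8, against 373 for *Fgf4*, so that the order of *Fgf4* and *Fgfr2* turns with the scale.

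Of 18 co-receptor and heparan sulfate genes 16 had an entry, with a median of 507 per kb of transcript. The highest were *Gpc3*, a glypican, at 2758, *Sdc4*, a syndecan, at 1755 and *Ext1*, which encodes a heparan sulfate polymerase, at 1619 per kb of transcript. *Gpc3*, at 17.9 per kb of gene, was below the median of its list on that scale, 23.1, and *Sdc4* was the highest at 228. *Kl*, the co-receptor for FGF23, was the lowest at 2.00, whereas *Klb*, the co-receptor through which FGF15 acts, was at 53.2 per kb of transcript. All 16 adaptor and kinase genes had an entry, with a median of 467 per kb of transcript. *Grb2*, which encodes an adaptor that links receptors to RAS, was at 1057 per kb of transcript. Of 13 feedback inhibitors and targets 11 had an entry and a transcript length, with a median of 204 per kb of transcript. *Spred1* at 1731, *Etv5* at 870 and *Spry2* at 866 per kb of transcript were the highest of these. *Spred1*, at 40.7 per kb of gene, was below the median of its list on that scale, 53.9, and *Spry2* was the highest at 371. On both length scales the median of the ligands was below that of the receptors and of each of these lists, and the differences were not tested.

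**Figure D3:**
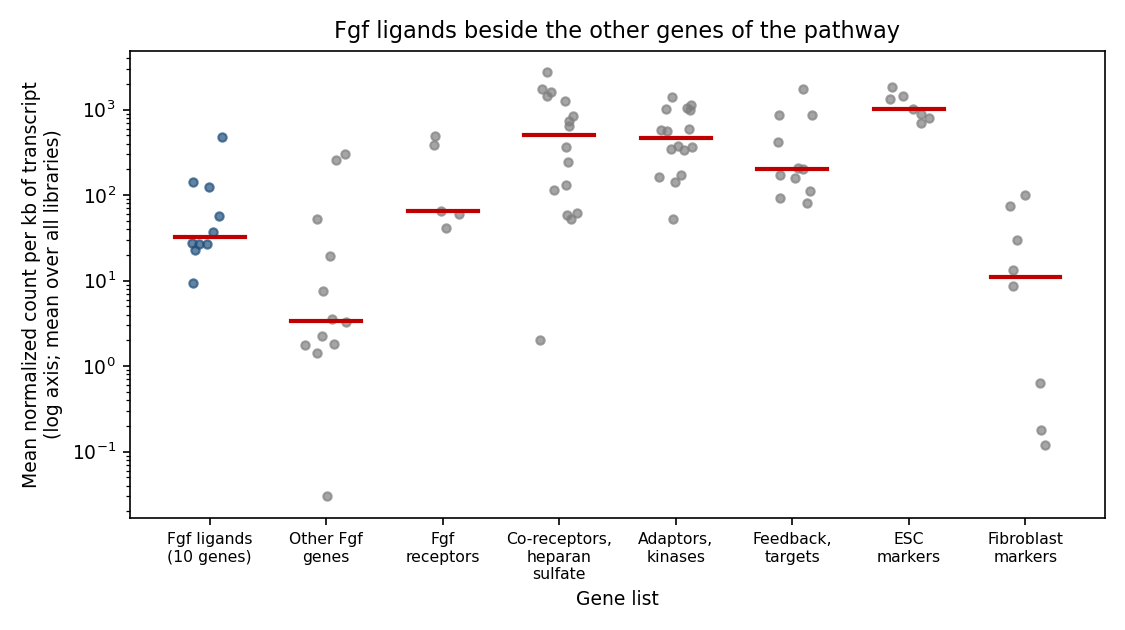
Authors' mean normalized count per kb of mature transcript, on a log axis, for the genes of each list that have an entry and a length; each point is 1 gene and the red bar is the median of the list. The median of the Fgf ligands is 32.0, and those of the receptors, adaptors and feedback genes are 65.0, 467 and 204.

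Of 8 embryonic stem cell markers 7 had an entry, and they lay between 698 for *Klf4* and 1851 for *Tdgf1* per kb of transcript, all above *Fgf4*. Per kb of gene *Sox2*, *Tdgf1* and *Klf4* were above *Fgf4*, at 749, 546 and 396, and *Pou5f1*, *Nanog*, *Zfp42* and *Esrrb* were below it, at 292, 221, 212 and 35.4. The 8 fibroblast and feeder markers had a median of 10.9 and a range of 0.116 to 99.6 per kb of transcript, with *Twist2*, *Thy1* and *Pdgfrb* the highest at 99.6, 74.0 and 30.0 and *Col3a1*, *Dcn* and *Lum* below 1. *Twist2* was at 2.84 per kb of gene, and *Thy1* was the highest on that scale, at 24.7. Their part in the level of any ligand was not tested.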

How the data were processed

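Each group has 4 libraries of nuclear RNA, depleted of rRNA and prepared with a directional kit. The tools named by the authors are Bowtie 2 for a filter on rRNA, STAR for mm10, SAMtools for duplicates and, over a gene set of their own, DESeq2. Their 3 deposited tables hold, for 20633 RefSeq entries, a signal per entry, the mean over all libraries of counts scaled by DESeq2, and, in each table, 6 columns of the authors' own comparisons of each null group with wild type (moderated and unmoderated log2 fold change, standard error, statistic, p-value and adjusted p), which were not used. Depth per library is unknown. Tool versions and the handling of introns and strand are not given in the sources used here.

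Symbols were assigned to 20560 entries, 20450 through RefSeq and 110 through GENCODE M21, giving 19338 genes, of which 19073 (98.6%) had a transcript length from GENCODE and 19327 a gene length from RefSeq. Levels were divided by these lengths in kb with Python 3.11.15, numpy 2.4.6 and pandas 2.3.3. Members and lists were chosen with earlier results of these data known. Text names all 10 ligands and the 3 highest genes per list (some adaptor and kinase genes are not reported here), plus genes singled out after their values were seen (*Kl*, *Klb*, *Fgfr3*, *Fgfr4*, *Fgf6*, *Fgf11*, other cell type markers, neighbours and overlapping genes). Alternatives were the length of the gene, the sum over entries, a minimum mean of 1 and no division by length.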

Additional observations from a re-analysis of the deposited data

How the results depend on the processing

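No paired analysis was possible because the tables hold no value per library, and for the same reason other normalizations and leaving out replicates could not be run. Divided by the length of the gene, the median level of the 10 ligands was 5.83 per kb, against 32.0 per kb of transcript, and the share of their summed level in *Fgf4* was 87.3%, against 50.1%. Not divided by length, that share was 58.0%, and the median percentage of genes below a ligand was 39.8%, against 39.7% per kb of transcript. Among genes with a mean of at least 1 the median percentage was 30.5%. Summing over entries left all 10 levels as they were, since each ligand has 1 entry. *Fgf4* ranked first of the 10 on both length scales, while *Fgf18* ranked 2 per kb of transcript and 6 per kb of gene, and *Fgf5* ranked 5 and 10. Depth cannot be judged from a pooled mean, so no interval is given, and *Fgf8* and *Fgf5* had the lowest mean counts of the 10.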
